A study of Mus musculus with 16 samples.

Results

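The genes that carry glucose from glycogen to pyruvate and lactate were followed in mouse gastrocnemius muscle under tumor burden, treadmill training and both. The group held 38 genes, taken by their symbols: 8 of upper glycolysis, 7 of lower glycolysis, 4 of lactate formation and transport, 13 of glycogen turnover, and 6 that control glycolysis or branch from it. They were 38 of 35415 genes listed, of which 23837 had a count, and 38 of the 14749 genes that passed the filter on low counts, so that no member was lost before testing. Of the 38, 1 gene, Ppp1r3c, changed with tumor burden over both training states at an adjusted p under 0.05 (2.63%, against 1.36% of all genes tested), a call that was lost when any of 7 mice was left out. With edgeR the other 37 did not pass that threshold in any of 7 comparisons, while DESeq2 also called Fbp2, Pfkfb1 or Pfkp in 4 of them and limma-voom called Fbp2 in 1.

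Glycolysis splits glucose phosphate into pyruvate and makes ATP without oxygen, and fast muscle fibers, which fill most of the mouse gastrocnemius, depend on it during hard contraction. Much of the substrate comes from glycogen stored in the fiber, which glycogen phosphorylase degrades and glycogen synthase builds. Pyruvate then either enters the mitochondria through pyruvate dehydrogenase or is reduced to lactate, which leaves or enters cells through monocarboxylate transporters. Several of these steps are catalyzed by enzymes with a muscle form and forms typical of other tissues, encoded by different genes.

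RNA with a polyA tail from 16 wild-type male BALB/c mice, 8 weeks old at purchase, was sequenced in 4 groups of 4 mice, drawn from larger groups. The C group received saline in place of tumor cells and stood on a resting treadmill. The E group also received saline and ran for 4 weeks, with 6 sessions a week that each lasted 60 min at a speed of 14 m/min. The T group carried CT26 tumors, a colon carcinoma line from this strain that was injected subcutaneously at the hind limb, and stood on a resting treadmill like the C group. The TE group received the same CT26 cells and the training of the E group. Because the tumor cells were placed at a hind limb and the sampled muscle is a hind limb muscle, a local effect of the tumor and an effect through the circulation cannot be told apart here.

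Library totals lay between 35628211 and 37635741 counts, and all libraries carry the same batch number. Muscle fiber markers were high throughout, with Ckm, muscle creatine kinase, at 13309 to 16969.7 FPKM and Myh4, the myosin of the fastest fibers, at 4573 to 5852 FPKM. FPKM is the count of a gene scaled to its length and to the library total, and so allows levels of different genes to be set side by side. Libraries T 3 and T 4 stood apart from the other T mice in slow fiber markers (8 markers summed to 973 and 1438 FPKM, against 538 and 540.2 in T 1 and T 2 and 415 to 1126 in C) and in Myh3, the embryonic myosin (1.27 and 11.6 FPKM against at most 0.544 in the other 14 libraries). Library TE 4 stood apart in lymphocyte markers, whose 10 genes summed to 90.3 FPKM there and to at most 24.2 elsewhere. Neutrophil and erythroid markers were higher with tumor. At an adjusted p under 0.05, 6 of 10 neutrophil and 5 of 6 erythroid markers rose in tumor-bearing mice, while 2 of 5 endothelial (Kdr and Emcn) and 1 of 6 fibroblast and tendon markers fell.

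Levels of the 38 genes spanned from 0.162 to 5870.5 FPKM as means over the 16 libraries. Aldoa, the muscle aldolase that splits fructose bisphosphate, was the highest and held 32.1% of the FPKM of the 38. It was followed by Pygm, muscle glycogen phosphorylase, at 2374 FPKM and Pgam2, muscle phosphoglycerate mutase, at 1994. Tpi1, triose phosphate isomerase, Pfkm, muscle phosphofructokinase, and Eno3, muscle enolase, came next at 1501, 1106 and 825 FPKM. The 6 highest genes thus included the muscle forms of 5 enzymes that have other forms in other tissues. Between 109.7 and 502 FPKM lay 15 genes, among them Pgk1, Pgm1, Ldha, Pkm and Gpi1 at the upper end and Gys1, muscle glycogen synthase, and Phka1, a regulatory subunit of phosphorylase kinase, at the lower end. Forms typical of other tissues were among the lowest, with Pfkl at 3.94, Pygb at 2.95, Pfkp at 2.12 and Aldoc last. Pgm2 stood at 1.46 FPKM, between Pfkp and Aldoc. Hk1, a hexokinase found in most tissues, stood at 3.97 FPKM.

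**Figure D1:**
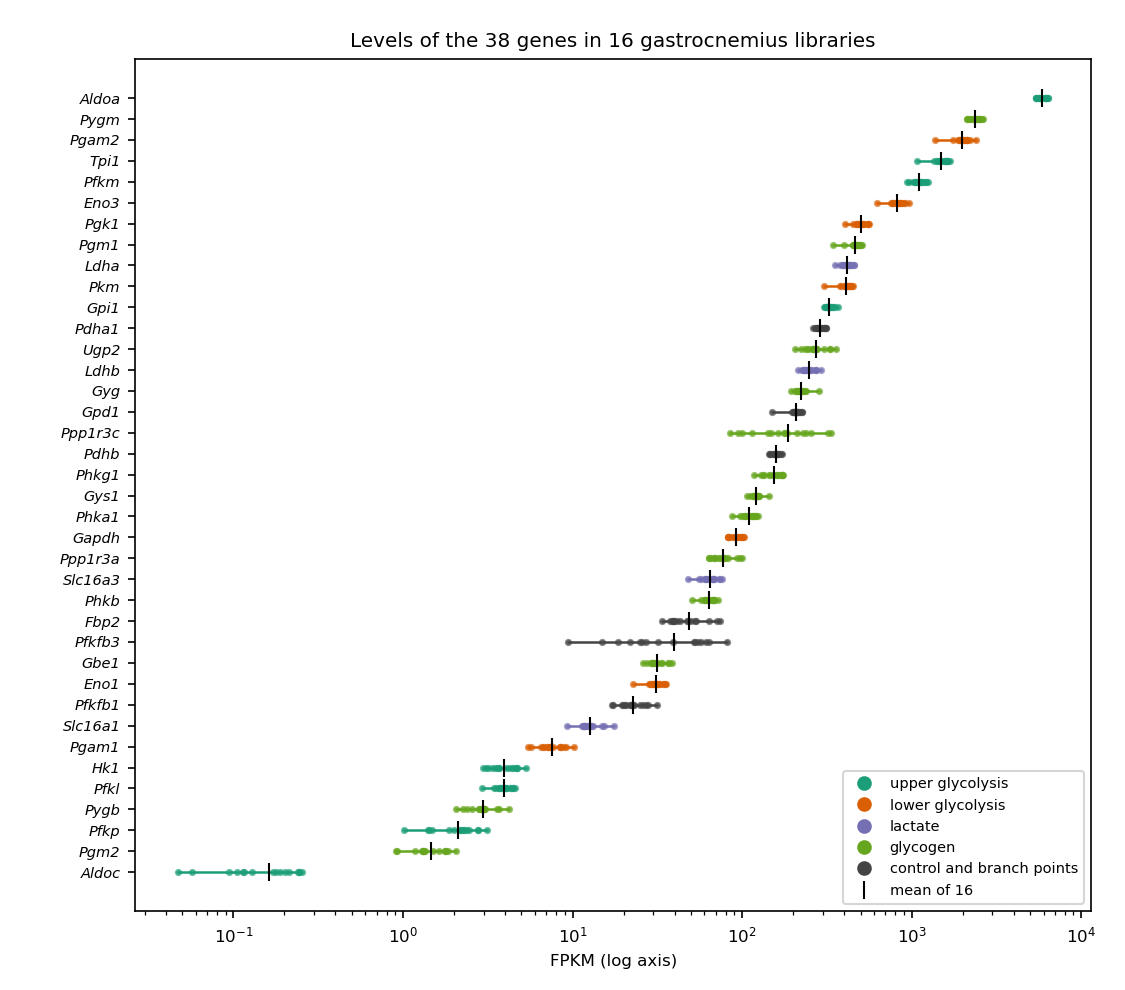
FPKM of the 38 genes on a log axis, with 1 point per library (16 libraries), a line from the lowest to the highest library, a black tick at the mean, and color by role. Aldoa sits at 5409.9 to 6357 FPKM and Aldoc at 0.0474 to 0.256, and most genes spread little beside the distance between genes, apart from Pfkfb3, Ppp1r3c and Aldoc.

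Neighbors in this order often had overlapping ranges. Pgk1 (402 to 557 FPKM), Pgm1 (345 to 507), Ldha (354 to 457) and Pkm (305 to 451) did so, and within a library Ldha was above Pkm in 7 of 16 and Pgk1 above Pgm1 in 14 of 16, while Pgk1 was above Ldha and above Pkm in 16 of 16. By contrast, Aldoa and Pygm (2133 to 2631) did not overlap. The order also depends on the gene lengths behind FPKM. Lengths recovered from the deposited files were 3.36 times the GENCODE canonical transcript for Ldha, 3.14 times for Pkm, 3.13 times for Eno3, 1.65 times for Pfkfb1 and 1.602 times for Aldoa, so that a level set by the canonical transcript would be higher for these genes by that factor. Gapdh, often used as a reference gene, ranked only 22nd of 38 at 92.4 FPKM (82.1 to 103). Its transcript matched 196 other places in GRCm39 at 90% identity or more over at least 50% of its length, and 40 at 98% or more, while no other member had over 2 at 98%. How reads with several matches were counted is not given in the sources used here, so the level of Gapdh is uncertain.

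The median spread between mice of a group was near that of tested genes over 1 FPKM, a set not matched to the members by level. The median coefficient of variation (SD over mean, within a group) was 9.90% for the 38 genes and 10.2% for 10193 tested genes with a mean over 1 FPKM. Gpi1, glucose phosphate isomerase, varied least at 3.28%. Pfkfb3, an enzyme that makes an allosteric activator of phosphofructokinase, varied most at 53.5%, ahead of Aldoc at 44.8% and Ppp1r3c at 29.2%. The E mice alone spanned Pfkfb3 from 9.36 to 81.5 FPKM. Aldoc rested on 5 to 27 counts per library.

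The choice between related genes was examined as the share of the minor gene in the summed FPKM of its family. For lactate dehydrogenase, whose Ldha subunit predominates in fast muscle and whose Ldhb subunit predominates in heart and oxidative fibers, Ldha stood at 457, 455, 416 and 430.4 FPKM in C, 436, 391, 394 and 407 in E, 436, 401, 354 and 447 in T and 415, 380, 426 and 421 in TE. Ldhb stood at 214, 245, 229.8 and 268 FPKM in C, 238, 233, 255 and 274 in E, 274, 255, 239 and 294 in T and 249, 231, 234 and 226 in TE. Ldhb thus took 31.9, 35.1, 35.59 and 38.4% of the pair in the C mice, 35.3, 37.4, 39.2 and 40.3% in E, 38.6, 38.8, 40.3 and 39.7% in T and 37.5, 37.8, 35.4 and 34.9% in TE. The T shares lay within 38.6 to 40.3% and above every C share, but not above every E share. With canonical transcript lengths the mean share was 13.1% in place of 37.3%, so the size of the share rests on the length chosen for Ldha, while its order among libraries does not.

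Of the lactate transporters, Slc16a3, which is typical of glycolytic fibers, stood at 64.0, 66.3, 61.8 and 67.4 FPKM in C, 73.7, 76.6, 60.8 and 68.7 in E, 68.3, 67.5, 56.9 and 47.9 in T and 61.6, 55.8, 73.1 and 60.3 in TE. Slc16a1, which is typical of oxidative fibers, stood at 11.4, 12.6, 12.3 and 12.8 FPKM in C, 11.8, 15.3, 11.8 and 11.7 in E, 13.2, 15.01, 12.9 and 12.1 in T and 17.5, 11.6, 11.48 and 9.34 in TE. Slc16a1 held 15.9% ± 0.629 of the pair in C, 15.3% ± 1.38 in E, 18.2% ± 1.61 in T and 16.6% ± 4.10 in TE (SD, n = 4). The groups overlapped, and TE spread the most, from 13.4 to 22.1%.

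Phosphofructokinase, which commits sugar phosphate to glycolysis, was nearly all of the muscle form. Pfkm stood at 1097, 1212, 1173 and 1211 FPKM in C, 1138, 1141, 1060.2 and 1105 in E, 1152, 1249.5, 971 and 945 in T and 1054, 1119, 1042 and 1021 in TE. Pfkl, the liver form, stood at 2.94, 4.48, 3.43 and 3.79 FPKM in C, 4.31, 4.58, 3.98 and 4.04 in E, 3.97, 3.53, 4.45 and 4.11 in T and 3.69, 3.79, 4.25 and 3.69 in TE. Pfkp, the platelet form, stood at 1.41, 1.87, 1.48 and 1.42 FPKM in C, 2.17, 3.12, 2.77 and 2.45 in E, 2.00, 1.02, 2.28 and 2.18 in T and 2.76, 2.38, 2.30 and 2.23 in TE. Pfkl and Pfkp together held 0.440% ± 0.0553 of the family in C, 0.613% ± 0.0473 in E, 0.557% ± 0.150 in T and 0.590% ± 0.0339 in TE, and all E shares were above all C shares. The training difference of 0.103 percentage points was the one with the smallest p of the 16 tests, and it did not pass the correction (exact permutation test within tumor state, two-sided, p = 0.0420, adjusted over 16 tests p = 0.673).

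Glycogen phosphorylase was likewise of the muscle form, with Pygm at 2366, 2485, 2611 and 2468 FPKM in C, 2519.9, 2133, 2444 and 2376 in E, 2631, 2384, 2145 and 2134 in T and 2232, 2307, 2548 and 2197 in TE. Pygb, the brain form, stood at 2.54, 3.00, 2.91 and 3.06 FPKM in C, 2.81, 4.19, 3.59 and 3.01 in E, 2.05, 2.27, 3.66 and 2.81 in T and 3.02, 2.39, 2.87 and 2.97 in TE. Pygb took 0.0778 to 0.196% of the pair over all libraries. Of the other minor genes of a pair, Eno1 took 3.04 to 4.35% (0.867 to 1.25% with canonical transcript lengths), Pgam1 0.257 to 0.536%, Pgm2 0.185 to 0.591% and Aldoc 0.000746 to 0.00472%. The transcripts of Eno1 and Pgam1 each matched 2 other places in GRCm39 at 98% identity or more. Those of Eno3 and Pgam2 matched 0 at 90% or more. Since the counting of reads with several matches is not given, the shares of Eno1 and Pgam1 are uncertain. None of the 8 families passed the exact permutation test for tumor or for training after adjustment (smallest adjusted p = 0.673), and at an unadjusted p under 0.05 the count was 1 of 16. The smallest p that this design allows is 0.000408.

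Promoter sequences are shown for the 4 members with the smallest p-values in the comparisons, Ppp1r3c, Fbp2, Pfkfb1 and Pfkp, to show whether and where they hold short motifs bound by known regulators of glycolytic genes. Each holds the 250 bases before the start of the GENCODE canonical transcript in GRCm39, read 5′ to 3′ on the strand of the gene. Capitals mark the core ACGTG (or CACGT on the other strand) of the element bound by hypoxia-inducible factor, which is also part of the E-box CACGTG, bound among others by the glucose-responsive factors Mlxip and Mlxipl. The windows are chr19:36714071-36714320 (minus strand) for Ppp1r3c, chr13:6698971-6699220 (minus strand) for Pfkp, chr13:63006553-63006802 (minus strand) for Fbp2 and chrX:149377224-149377473 (plus strand) for Pfkfb1.
Ppp1r3c: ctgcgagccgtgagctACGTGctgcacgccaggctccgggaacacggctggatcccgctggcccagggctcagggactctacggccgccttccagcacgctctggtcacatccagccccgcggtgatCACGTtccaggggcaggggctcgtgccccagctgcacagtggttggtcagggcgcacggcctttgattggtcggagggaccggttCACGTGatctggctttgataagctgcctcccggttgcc
Pfkp: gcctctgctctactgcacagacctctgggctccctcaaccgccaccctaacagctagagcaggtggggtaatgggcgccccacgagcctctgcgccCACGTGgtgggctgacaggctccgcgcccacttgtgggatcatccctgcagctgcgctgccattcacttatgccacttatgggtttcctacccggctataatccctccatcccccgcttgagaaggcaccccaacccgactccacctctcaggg
Fbp2: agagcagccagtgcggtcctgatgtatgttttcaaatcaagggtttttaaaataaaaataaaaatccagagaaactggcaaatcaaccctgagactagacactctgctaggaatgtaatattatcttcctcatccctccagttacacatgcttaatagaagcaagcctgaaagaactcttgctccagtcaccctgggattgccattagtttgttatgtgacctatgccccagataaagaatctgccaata
Pfkfb1: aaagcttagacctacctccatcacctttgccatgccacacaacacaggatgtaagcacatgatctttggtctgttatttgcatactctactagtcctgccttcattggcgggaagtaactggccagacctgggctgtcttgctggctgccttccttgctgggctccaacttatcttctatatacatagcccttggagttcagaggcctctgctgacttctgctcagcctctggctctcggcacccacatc
In Ppp1r3c the core lay at positions -234, -123 and -38, the last within an E-box, and in Pfkp it lay at -154, also within an E-box, where -1 is the base before the start. These letters were in neither the Fbp2 nor the Pfkfb1 window. The Pfkfb1 window lies inside the gene, which begins at chrX:149371225. For no member were the starts of other transcripts searched.

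Across the 38 windows, 15 (39.5%) held ACGTG on either strand, against 17% of 21757 protein-coding genes, and 5 (13.2%) held CACGTG, against 6.26%. The 5 with the E-box were Eno3, Ldha, Pfkp, Ppp1r3c and Slc16a1. Other motifs were searched in the same way, again on either strand. The GC box GGGCGG was in 12 members (31.6% against 36.3%) and TATAAA in 4 (10.5% against 11.9%). The half-site TGACG of the cyclic AMP response element was in 4 (10.5% against 18%), the glucocorticoid receptor half-site AGAACA in 8 (21.1% against 14.3%), and the FOXO motif GTAAACA in 0 of 38, against 2.72% of all genes. Median GC content was 55.6% in the members and 53.2% in all genes. These matches describe the letters in a window and do not show that a factor binds.

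The T group was compared with the C group to see how these genes differed with tumor burden alone. At an adjusted p under 0.05, 0 of 38 genes were called with edgeR's quasi-likelihood test, against 100 of 14749 genes tested (0.678%). At an unadjusted p under 0.05 the count was 9 of 38 (23.7%), against 14.2% of all genes, with 4 higher in T (10.5%, against 8.23%) and 5 lower (13.2%, against 5.96%), and DESeq2 called 3 (Ppp1r3c, Fbp2 and Pfkfb1, 7.89%, against 2.81% of all genes) and limma-voom 0 (against 0.461%) at an adjusted p under 0.05. The median log2 fold change of the members was -0.072, beside -0.0012 for all genes tested, and 23 members had estimates below 0 (60.5%, against 50.3% of all genes). The median was -0.014 without T 3, -0.114 without T 1 and 0.023 without T 3 and T 4 together. In CPM scaled by TMM, the values behind the test, the groups did not overlap for 3 genes (7.89%, against 6.86% of all genes), namely Ppp1r3c and Pdha1, higher in T (5.26%, against 4.03%), and Fbp2, lower in T (2.63%, against 2.83%). In FPKM the count was 8 (21.1%, against 6.85% of all genes), with Gpi1, Phkg1, Eno3, Pgam2 and Tpi1 also lower in T, so that overlap depended on the scale.

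Ppp1r3c (chr19:36708523-36714070 in GRCm39, minus strand) encodes a subunit that brings protein phosphatase to glycogen, where it favors glycogen synthesis. It stood at 148, 94.7, 100.4 and 84.7 FPKM in C, 143, 229, 114 and 184 in E, 239.8, 164, 323 and 178 in T and 176, 211, 335 and 256 in TE. All T mice were above all C mice, E overlapped with both, and the highest values of all were in T 3 and TE 3. The log2 fold change in T compared with C was 1.10 (SE 0.26, adjusted p = 0.0635), the largest of the 38 and the one with the smallest p.

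Fbp2 (chr13:62984691-63006552, minus strand) encodes muscle fructose bisphosphatase, which runs the phosphofructokinase step backwards toward glycogen. It stood at 74.1, 71.0, 53.7 and 52.5 FPKM in C, 39.4, 50.1, 33.8 and 38.6 in E, 39.6, 37.5, 41.5 and 47.6 in T and 47.7, 39.8, 43.0 and 63.8 in TE. The C mice formed a higher pair and a lower pair, and all T and all E mice were below both, while TE 4 reached into the C range. The log2 fold change in T compared with C was -0.57 (SE 0.15, adjusted p = 0.0923). GENCODE places a lncRNA on the opposite strand over Fbp2, and 21 of the 38 genes overlap some gene on the other strand, Pfkp (Pitrm1) and Aldoa (Tlcd3b) among them, but not Ppp1r3c or Pfkfb1. Since the strand setting of the counting is not given in the sources used here, reads of such pairs cannot be told apart.

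Pfkfb1 (chrX:149371225-149426874, plus strand) encodes a form of the enzyme, present in liver and muscle, that makes and removes an allosteric activator of phosphofructokinase. It stood at 25.1, 25.9, 28.0 and 31.3 FPKM in C, 23.1, 21.9, 22.2 and 22.0 in E, 19.7, 27.0, 17.0 and 17.4 in T and 20.3, 19.5, 22.7 and 20.7 in TE. Of the T mice, T 2 lay inside the C range and the others lay below it. The log2 fold change was -0.42 (SE 0.12, adjusted p = 0.1098), and without T 2 it was -0.58 (adjusted p = 0.00519), past the threshold. Toward the other side it was -0.33 without T 3 (adjusted p = 0.298) and -0.19 without T 3 and T 4 (adjusted p = 0.595). Without T 2, Ppp1r3c also passed the threshold, at 1.22 (adjusted p = 0.0326), and without C 1 at 1.32 (adjusted p = 0.0429), with edgeR's quasi-likelihood test, while without T 3 it was at 0.89 (adjusted p = 0.193) and without T 3 and T 4 at 0.96 (adjusted p = 0.271).

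**Figure D2:**
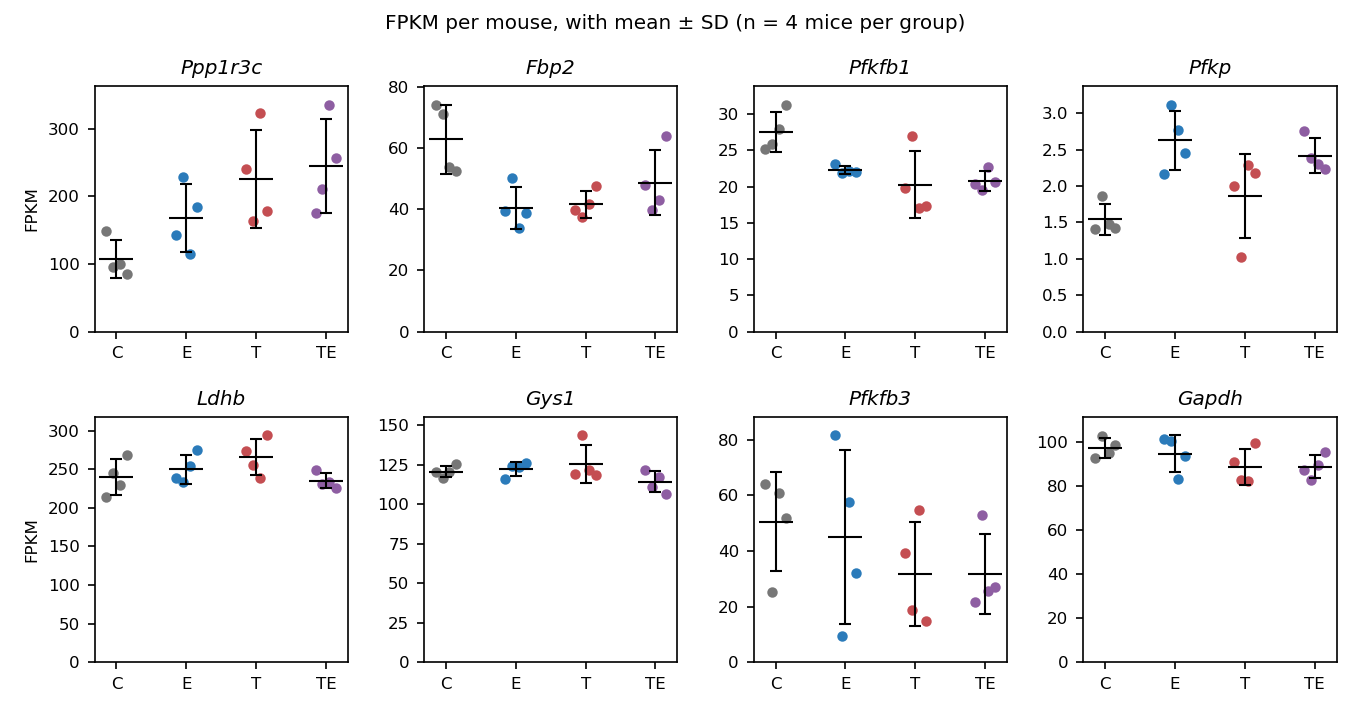
FPKM per mouse of 8 of the genes (points, axes from 0), with the mean (long bar) and SD (whiskers, n = 4 mice) of each group. Ppp1r3c is lowest in C (84.7 to 148 FPKM) and higher in T (164 to 323) and TE (176 to 335), Fbp2 is highest in C (52.5 to 74.1), and Pfkfb3 spreads widely within groups (E from 9.36 to 81.5).

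Lower glycolysis had mostly lower estimates in T without a call. Of its 7 genes, 6 had lower estimates in T, with a median log2 fold change of -0.14. Pgam2 at -0.26 (SE 0.11, adjusted p = 0.266) and Eno3 at -0.23 (SE 0.09, adjusted p = 0.229) had unadjusted p-values under 0.05, as did Tpi1 of upper glycolysis at -0.23 (SE 0.10, adjusted p = 0.285). Library T 3 was lowest in each. Pgam2 was at 2115, 2013, 1365 and 1763 FPKM in T 1 to T 4, Eno3 at 806, 839, 628 and 758 and Tpi1 at 1545, 1498, 1069.9 and 1348 in the same order, and the T 3 value was the lowest of all 16 libraries for these 3 genes. Without T 3 the log2 fold change was -0.14 for Pgam2 and -0.14 for Eno3, and without T 3 and T 4, a choice made after seeing the data, -0.05 and -0.09.

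The other roles held estimates toward both sides in T. Control and branch points, with Fbp2 and Pfkfb1, had 5 of 6 estimates below 0 and the lowest median of the 5 roles, -0.26. Pdha1, a subunit of pyruvate dehydrogenase, was the 1 of this role above 0 and had a log2 fold change of 0.14 (SE 0.06, adjusted p = 0.291), Ldhb of 0.18 (SE 0.08, adjusted p = 0.327) and Gbe1, the glycogen branching enzyme, of 0.22 (SE 0.10, adjusted p = 0.330). Pdha1 stood at 285 to 306 FPKM in T and 263 to 279.5 in C. Of 13 glycogen genes 7 had higher and 6 lower estimates, with a median of 0.034. Over upper glycolysis the split was 4 to 4 and over lactate genes 2 to 2. Neutrophil markers summed to 15.96 to 89.3 FPKM in T and 1.86 to 18.1 in C, with 5 of 10 markers called, and erythroid markers to 733 to 820.5 and 361 to 527, with 4 of 6 called. Endothelial markers summed to 129.6 to 178 FPKM in T and 131 to 166 in C, with 1 of 5 called (Kdr, lower in T), and macrophage markers to 66.8 to 156 and 51.2 to 102, higher in estimate for 8 of 8 with 0 called and 4 at an unadjusted p under 0.05. Lymphocyte markers summed to 0.477 to 1.03 in T and 0.577 to 24.2 in C, lower in estimate for 10 of 10 with 6 at an unadjusted p under 0.05, and Schwann cell and nerve markers to 122 to 254 and 173 to 399, lower for 6 of 6 with 3 at that p. Muscle fiber markers summed to 40140.2 to 42183 in T and 36778 to 39736 in C, higher in estimate for 7 of 7 with 4 at that p, and 0 markers were called in each of these lists. In a whole muscle, fewer cells of a type and less RNA per cell cannot be told apart, and the part of these cells and of the slow fiber share in the member values was not tested.

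The TE group was compared with the E group to ask how the genes differed with tumor burden in trained mice. With edgeR 0 of 38 genes had an adjusted p under 0.05, against 34 genes of all tested (0.231%), DESeq2 and limma-voom also called 0 members (against 1.19% and 0.414% of all genes), and 2 (5.26%) had an unadjusted p under 0.05, against 9.23% of all genes. The median log2 fold change was -0.0084, beside 0.0029, and lay at -0.022 to 0.019 with 1 mouse left out. Aldoa (chr7:126393822-126399923, minus strand) stood at 6088, 6189, 5648 and 5682 FPKM in C, 5627, 5426, 5444 and 5564 in E, 6339, 5409.9, 6141 and 6204 in T and 5781, 5794, 6233 and 6357 in TE. It was the 1 member whose groups did not overlap in CPM (2.63%, against 6.62% of all genes) or in FPKM (against 6.73%), with a log2 fold change of 0.18 (SE 0.07, adjusted p = 0.398). The TE and C ranges overlapped, and all E mice were below all C mice. Ppp1r3c was at 0.59 (SE 0.26, adjusted p = 0.488), with overlap, Fbp2 at 0.31 (SE 0.15, adjusted p = 0.568), Pgk1, phosphoglycerate kinase, at 0.14 (SE 0.09, adjusted p = 0.671) and Pygb at -0.22 (SE 0.15, adjusted p = 0.688). With 1 mouse left out, Ppp1r3c ran from 0.39 to 0.79, Fbp2 from 0.17 to 0.43, Pgk1 from 0.09 to 0.21 and Pygb from -0.31 to -0.10. Beside this, erythroid markers summed to 863 to 1271 FPKM in TE and 391 to 581 in E, with 5 of 6 called higher, and fibroblast and tendon markers to 282 to 319 and 399 to 497, lower in estimate for 6 of 6, each at an unadjusted p under 0.05, with 1 called (Tnmd). Neutrophil markers summed to 21.2 to 41.3 FPKM in TE and 2.05 to 9.54 in E, higher in estimate for 9 of 9 tested with 6 at that p and 0 called. Fast fiber markers were higher in estimate for 8 of 9 and muscle fiber markers for 6 of 7, each list with 2 at that p. Lower estimates were found for 8 of 8 slow fiber markers (0 at that p), 3 of 5 endothelial (3) and 6 of 6 Schwann cell and nerve markers (2). In each of these lists 0 were called. The part of these markers in the member values was not tested.

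Over both training states, 8 tumor-bearing mice were compared with 8 tumor-free mice. Here Ppp1r3c rose, by a log2 fold change of 0.85 (SE 0.18, adjusted p = 0.0258) with edgeR's quasi-likelihood test, and was the 1 member of 38 called (2.63%), against 201 of 14749 genes (1.36%). Its means were 107 ± 28.1 FPKM in C, 167 ± 50.04 in E, 226 ± 72.5 in T and 245 ± 69.0 in TE (SD, n = 4). Estimates were above 0 in both training states (1.10 untrained and 0.59 trained), and the interaction was -0.50 (SE 0.36, adjusted p = 0.683). The call was lost without C 2, C 3, C 4, E 1, E 3, T 1 or TE 3, left out in turn (adjusted p from 0.0529 to 0.0679), in a robust fit (adjusted p = 0.0748) and without T 3 and T 4 (log2 fold change 0.78, adjusted p = 0.0519). In all, 10 of 23 alternatives lost the call. It was kept with DESeq2 (adjusted p = 0.00795) and limma-voom (adjusted p = 0.0197), each calling 1 member, against 3% and 1.51% of all genes. Its estimate stayed between 0.742 and 0.960 over all 23 alternatives.

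The members next in order by p did not pass the threshold for tumor burden. Pfkfb1 was at -0.23 (SE 0.08, adjusted p = 0.194), Aldoa at 0.12 (SE 0.05, adjusted p = 0.256), Pdha1 at 0.10 (SE 0.04, adjusted p = 0.326) and Eno3 at -0.12 (SE 0.06, adjusted p = 0.418), or -0.07 without T 3 and -0.04 without T 3 and T 4. Without T 2, Pfkfb1 was at -0.32 with an adjusted p of 0.0119, so that 2 members were then called, and without T 3 and T 4 it was at -0.12 (adjusted p = 0.485). The share of all genes called without T 2 was not counted. The other glycogen-targeting subunit among the members, Ppp1r3a, the muscle form, was at -0.14 (SE 0.09, adjusted p = 0.534) and ranged from 63.4 to 99.5 FPKM over all libraries. Gys1, the synthase on which both act, was at 0.02 (SE 0.05, adjusted p = 0.927).

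The E group was compared with the C group to see what differed with training in mice without a tumor. No member was called with edgeR (0 of 38, against 13 genes of all tested, 0.0881%), 5 had an unadjusted p under 0.05 (13.2%, against 14.2%), and DESeq2 called 2, Fbp2 and Pfkp (5.41% of the 37 members it gave an adjusted p, against 1.95% of all genes), while limma-voom called Fbp2 (2.63%, against 0.956%). The T vs C and E vs C comparisons share the 4 C mice, so their values are set side by side and are not independent of each other. Fbp2 was at -0.67 (SE 0.15, adjusted p = 0.0932) in E and -0.57 in T, Pfkfb1 at -0.34 (SE 0.12, adjusted p = 0.214) and -0.42, and Ppp1r3c at 0.61 (SE 0.26, adjusted p = 0.307) and 1.10. In a fit of only the E and C libraries, Fbp2, Pfkfb1 and Pfkp passed the threshold (7.89% of the members, against 1.29% of all genes, with adjusted p = 0.0485, 0.0422 and 0.0287).

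Pfkp (chr13:6629798-6698970, minus strand), whose values by mouse are given above with its family, was higher in all E mice (2.17 to 3.12 FPKM) than in any C mouse (1.41 to 1.87). Its log2 fold change was 0.73 (SE 0.19, adjusted p = 0.138), at a level of about 2.12 FPKM against 1106 for the muscle form. Gpi1 was lower in all E mice (328, 317, 313 and 331 FPKM) than in any C mouse (343, 368, 342 and 356 FPKM), by a small margin, with a log2 fold change of -0.16 (SE 0.06, adjusted p = 0.226).

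Many members sat slightly lower in E. In CPM scaled by TMM, the E and C groups did not overlap for 9 of 38 genes (23.7%, against 9.08% of all genes), 1 higher, Pfkp (2.63%, against 5.06%), and 8 lower (21.1%, against 4.02%). The 8 were Fbp2, Pfkfb1, Gpi1, Aldoa, Phkg1, Pgam2, Pfkm and Pygm, and apart from Fbp2 and Pfkfb1 their log2 fold changes were between -0.22 and -0.11. In FPKM, Pfkm and Pygm overlapped between E and C, which left 7 genes (18.4%, against 8.67% of all genes). Estimates were below 0 for 25 members (65.8%, against 49.4% of all genes). The median over the 38 was -0.069 (-0.099 to -0.045 with 1 mouse left out), beside 0.0033 for all genes, and 21 to 26 of 38 genes were below the C mean in each E mouse, a count that ran from 13 to 32 in the C mice themselves, highest in C 3. The members' share of all counts was 5.02 to 5.27% in C and 4.76 to 5.03% in E. Beside this, the 6 fibroblast and tendon markers summed to 399 to 497 FPKM in E and 267 to 363 in C, higher in E for 6 of 6 with 1 called (Tnmd), the 6 adipocyte markers to 508 to 817 and 455 to 637, higher in estimate for 6 of 6 with 0 called and 3 at an unadjusted p under 0.05, and the 9 fast fiber markers to 47974 to 55879.6 and 53671 to 59516. Their part in the member values was not tested.

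**Figure D3:**
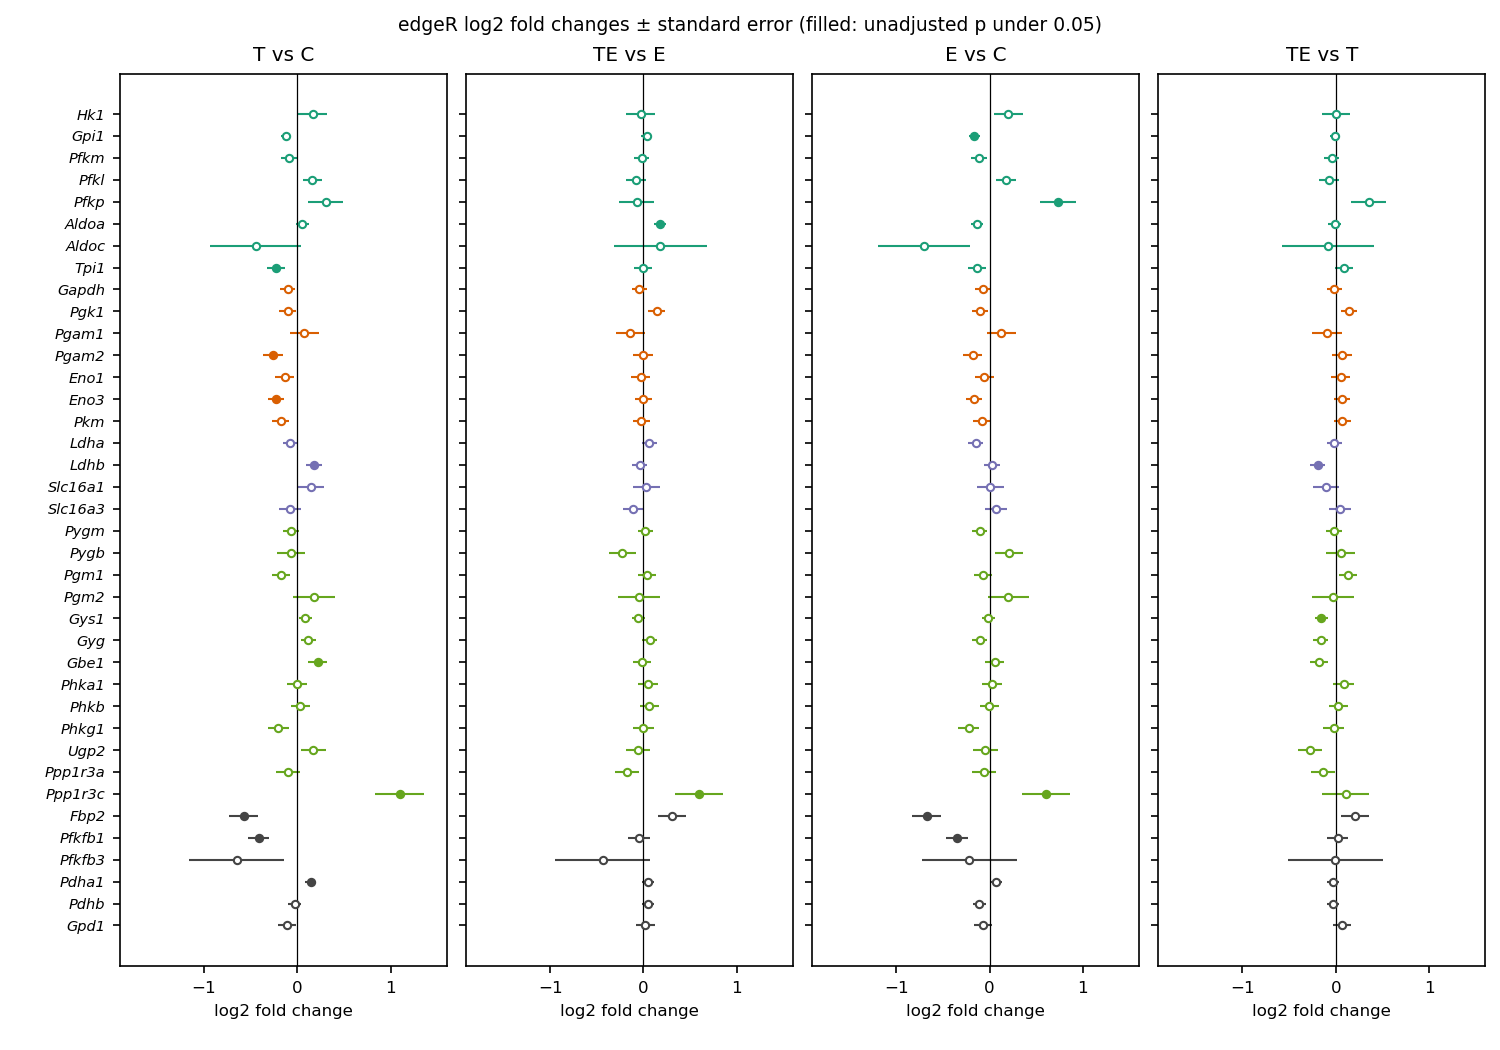
Log2 fold changes of the 38 genes (points, with SE as lines) in 4 comparisons with edgeR, where filled points have an unadjusted p under 0.05 and colors follow the roles, from upper glycolysis at the top to control and branch points at the bottom. Ppp1r3c lies to the right in T vs C (1.10), TE vs E (0.59) and E vs C (0.61) and near 0 in TE vs T (0.10), and Fbp2 lies to the left in T vs C (-0.57) and E vs C (-0.67) alone.

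The TE group was compared with the T group to ask what differed with training in tumor-bearing mice, the question closest to the purpose of the study. With edgeR 0 of 38 members and 0 of all genes tested (0%) had an adjusted p under 0.05, DESeq2 and limma-voom called 0 members (against 0.0294% and 0% of all genes), and 2 members (5.26%, against 5.88% of all genes) had an unadjusted p under 0.05. The median was -0.0097 (-0.038 to 0.033 with 1 mouse left out), beside 0.0014, and the groups overlapped for each of the 38 genes in CPM and in FPKM, against 2.58% and 2.47% of all genes without overlap. Ldhb was at -0.19 (SE 0.08, adjusted p = 0.839), with TE at 226 to 249 FPKM and T at 239 to 294. Gys1 stood at 120.4, 117, 120.4 and 125 FPKM in C, 116, 124, 124 and 126 in E, 119, 144, 122 and 118 in T and 122, 111, 117 and 107 in TE. Its log2 fold change was -0.15 (SE 0.07, adjusted p = 0.847), and T 2 was the highest of all libraries. Ugp2, which makes the UDP-glucose that glycogen synthase uses, stood at 249, 329.8, 240.5 and 264 FPKM in C, 262, 266, 273 and 274 in E, 304, 331, 357 and 204 in T and 275, 235, 264 and 223 in TE. It was at -0.28 (SE 0.13, adjusted p = 0.847), with T 1 to T 3 above all TE mice and T 4 below them. Gyg, glycogenin, the protein on which a glycogen particle starts, was at -0.16 (SE 0.08, adjusted p = 0.852) and Pfkp at 0.36 (SE 0.19, adjusted p = 0.852). The Pfkp value, the largest of the 38 in size, was 0.16 without T 2 and 0.64 without T 3 and T 4. Gys1 was at -0.08 without T 2 and -0.24 without T 3 and T 4, Gyg at -0.08 without T 3 and -0.21 without T 4, and Ugp2 at -0.19 without T 3 and -0.42 without T 4. Beside this, the 8 slow fiber markers summed to 421 to 605 FPKM in TE and 538 to 1438 in T, with lower estimates in TE for 8 of 8, 7 of them at an unadjusted p under 0.05, and 0 called. Lymphocyte markers were higher in estimate for 10 of 10, each at that p with 0 called, with sums of 0.530 to 90.3 FPKM in TE and 0.477 to 1.03 in T, where TE 4 was the 1 mouse above the T range. The part of these markers in the member values was not tested.

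Training over both tumor states moved no member past the threshold with edgeR (0 of 38, against 1 of all genes, 0.00678%), 3 had an unadjusted p under 0.05, against 10.8% of all genes, and DESeq2 called 1, Pfkp (against 0.735% of all genes), and limma-voom 0 (against 0.0949%). Pfkp was at 0.54 (SE 0.13, adjusted p = 0.188), with estimates above 0 in both tumor states. T 2 at 1.02 FPKM was the lowest library of all, and without T 3 and T 4 Pfkp was called, at 0.68 (adjusted p = 0.037). Gyg was at -0.13 (SE 0.06, adjusted p = 0.417), Fbp2 at -0.23 (SE 0.11, adjusted p = 0.454), Gpi1 at -0.09 (SE 0.04, adjusted p = 0.466) and Pfkfb1 at -0.16 (SE 0.08, adjusted p = 0.496). Pfkfb1 was at -0.08 without T 2 and -0.27 without T 3 and T 4 (adjusted p = 0.0719).

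Whether training acted otherwise in mice with and without a tumor was tested by the interaction, the TE vs T difference minus the E vs C difference. With edgeR 0 of 38 members and 0 of all genes (0%) had an adjusted p under 0.05, 2 members had an unadjusted p under 0.05 (5.26%, against 9.21%), and DESeq2 called 1, Fbp2 (against 0.122% of all genes), and limma-voom 0 (against 0%). The Fbp2 interaction was 0.88 (SE 0.22, adjusted p = 0.420), made of a difference of -0.67 with training in tumor-free mice and 0.21 in tumor-bearing mice. Fbp2 means were 62.8 ± 11.3 FPKM in C against 40.5 ± 6.86 in E, 41.5 ± 4.34 in T and 48.6 ± 10.7 in TE (SD, n = 4). The E, T and TE groups overlapped with each other, and of these only TE overlapped with C. Pfkfb1 likewise had its highest mean in C, with an interaction of 0.36 (SE 0.17, adjusted p = 0.540) and means of 27.6 ± 2.76, 22.3 ± 0.519, 20.3 ± 4.62 and 20.8 ± 1.37 FPKM in C, E, T and TE. The Pfkfb1 interaction was 0.54 without T 2 and 0.15 without T 3 and T 4. The next members were Pgk1 at 0.24 (SE 0.13, adjusted p = 0.572), Ldhb at -0.22 (SE 0.12, adjusted p = 0.574) and Gpi1 at 0.16 (SE 0.08, adjusted p = 0.574).

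Summed over a role, lower glycolysis in FPKM was highest in the C mice. The 7 genes summed to 4039.8 to 4523 FPKM in C, 3719 to 4031 in E, 2813 to 3964 in T and 3719 to 3956 in TE, so that the lowest C mouse was just above the highest of the other 12. By share of counts, which uses no gene lengths, C and E overlapped, with 1.10 to 1.22% in C and 1.01 to 1.12% in E, and all T (0.795 to 1.077%) and TE mice (1.02 to 1.09%) were below all C mice. Pgam2 and Eno3 make up most of this sum. Upper glycolysis summed to 8763 to 9429, 8279 to 8715, 8486 to 9378 and 8661 to 9194 FPKM in the same order, with all E mice below all C mice and the tumor groups across both. Glycogen genes (4078 to 4239, 3838 to 4207, 3617 to 4473 and 3851 to 4412 FPKM) and lactate genes (719.9 to 779, 716 to 761, 663 to 800.1 and 678 to 745 FPKM) overlapped in all groups. Control and branch points summed to 784 to 803, 739.5 to 793, 698 to 777 and 743 to 789 FPKM, with all T mice below all C mice. These sums were looked at after the values were known and were not tested.

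Library T 3 was the lowest of all libraries in 12 members and the highest in some others. It held the lowest FPKM of all 16 libraries for Tpi1 (1069.9), Pgam2 (1365), Eno3 (628), Eno1 (22.6), Pkm, pyruvate kinase (305), Pgk1 (402), Ldha (354), Pgm1, phosphoglucomutase (345), and Gpd1, cytosolic glycerol phosphate dehydrogenase (151), and for 3 more members, Gapdh, Phkg1 and Pfkfb1. Lower glycolysis took 0.795% of its counts, while the range was 0.986 to 1.22% among the other 15 libraries. Aldoa, at 6141 FPKM, and Myh4, at 5406, were within the range of the other libraries, while Pvalb, parvalbumin, a calcium buffer of fast fibers, was the lowest of all at 3623 FPKM against 4262 to 6408. The same library had the highest levels of Ugp2 (357 FPKM), Gyg (285), Hk1 (5.32) and Pgm2 (2.05). Without T 3 and T 4 the median log2 fold change of the 38 genes in T vs C was 0.023 in place of -0.072.

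**Figure D4:**
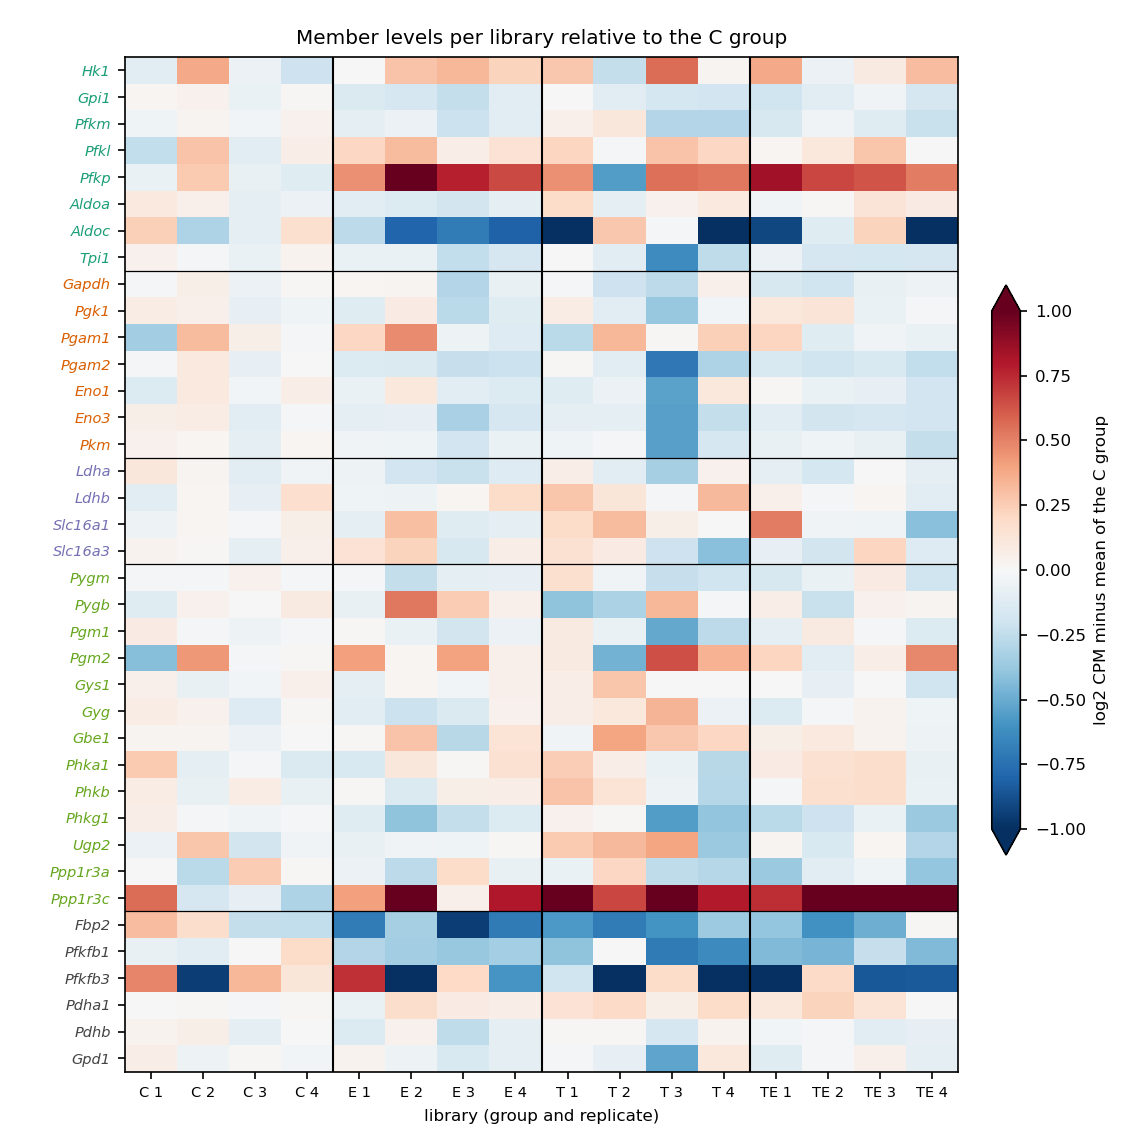
Log2 CPM of each gene (rows, by role) in each library (columns, by group), minus the mean of the C group, where red is higher and blue lower, with colors cut off at 1 and -1. Ppp1r3c and Pfkp are red in most E, T and TE libraries, Fbp2 and Pfkfb1 are blue in most of them, and T 3 is blue from Tpi1 to Ldha apart from Pgam1.

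Outside the 38, 83 further genes of glucose uptake, glycogen, lactate and pyruvate handling and of the control of these genes were counted under the same test, of which 76 were tested. None of the 76 had an adjusted p under 0.05 with edgeR in any of the 7 comparisons. At an unadjusted p under 0.05 there were 17 in T vs C (13 higher and 4 lower, 22.4% of 76, against 14.2% of all genes), 7 in TE vs E (9.21%, against 9.23%), 15 in E vs C (19.7%, against 14.2%) and 1 in TE vs T (1.32%, against 5.88%). For tumor and for training there were 12 each (15.8%, against 14.2% and 10.8%), and for the interaction 6 (7.89%, against 9.21%). Regulators led in T: Klf15, a glucocorticoid target in muscle, was at 0.53 (SE 0.14, adjusted p = 0.1003) and Ppargc1a, a coactivator of oxidative metabolism, at 0.39 (SE 0.10, adjusted p = 0.1003). Ppargc1a stood at 1.96, 1.83, 2.17 and 1.74 FPKM in C, 2.33, 2.81, 2.55 and 2.53 in E, 2.39, 2.57, 2.35 and 2.58 in T and 2.76, 2.74, 2.97 and 2.097 in TE. All C mice were below all mice of the other groups, apart from TE 4, which was below the highest C mouse. In E compared with C, Eya1, a cofactor for fast-fiber genes, was at 0.33 (SE 0.09, adjusted p = 0.150) and Ppargc1a at 0.37 (SE 0.10, adjusted p = 0.153). For tumor over both training states, Mlxip, a glucose-responsive factor that binds E-boxes, was at 0.27 (SE 0.08, adjusted p = 0.0958) and Pdk1, a kinase that inhibits pyruvate dehydrogenase, at 0.18 (SE 0.05, adjusted p = 0.104).

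In the other comparisons, the pathway genes with the smallest p-values were of mixed roles. In TE compared with E, Galm, which interconverts the forms of free hexose, was at -0.49 (SE 0.16, adjusted p = 0.312) and Slc2a1, a glucose transporter present in most tissues, at -0.41 (SE 0.17, adjusted p = 0.459). In TE compared with T, Mlxipl was at -0.18 (SE 0.08, adjusted p = 0.847) and Mpc2, a mitochondrial pyruvate carrier subunit, at 0.11 (SE 0.06, adjusted p = 0.848). Training over both tumor states gave Ppargc1a at 0.23 (SE 0.07, adjusted p = 0.332) and Pgm5 at 0.21 (SE 0.08, adjusted p = 0.370). For the interaction Slc2a1 was at -0.71 (SE 0.24, adjusted p = 0.438) and Bpgm, which makes the phosphoglycerate that tunes hemoglobin, at 0.37 (SE 0.12, adjusted p = 0.438), where Slc2a1 was at 5.68 to 6.91 FPKM in E, above all C mice (3.21 to 4.93), and overlapped between T (3.69 to 5.80) and TE (3.32 to 5.52).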

How the data were processed

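Gastrocnemius RNA of 16 mice (4 per group) was analysed. Groups and replicate numbers came from the labels. Per the submitters' processing notes, reads were trimmed with fastp 0.20.1, aligned to GRCm39 with HISAT2 2.1.0 and counted with HTSeq 0.11.2. The counts per gene were deposited by the authors without normalization, and the deposited FPKM values are these counts scaled to gene length and library total. The annotation release and strand setting are not given in the sources used here. The labels and the paper name different versions of the library kit. Each library held 35628211 to 37635741 counts, and 3 counts correspond to 0.0842 CPM or less. Reads carry no molecular tags, so counting error is a lower limit of the error.

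Counts were tested with edgeR 4.0.16 in R 4.3.3 (TMM factors, filterByExpr, glmQLFit and glmQLFTest, 1 coefficient per group, all 16 libraries, two-sided), with p-values adjusted by the Benjamini-Hochberg method over all 14749 genes tested in each of 7 comparisons. Tests were checked on simulated counts, with changes set in genes picked at random over all levels. A log2 change of 0.5 was called for 33.3% of the changed genes in T vs C and 56.1% for tumor over both training states. A member without a call may thus still differ by such an amount. Shares within families were compared by exact permutation of 4900 arrangements within the other factor. Replicates are separate mice, and same-numbered mice of different groups are not pairs. Alternatives were DESeq2 1.42.0, its size factors in edgeR, limma-voom (limma 3.58.1), a robust fit, a replicate block, no filter, a fit of just the 2 groups, the fold change threshold of the study (over 2 or under 0.5), unadjusted p-values and each mouse left out in turn. Leaving out T 3 and T 4 together and the canonical transcript lengths were added after seeing the data. Other matches of the transcripts were searched with minimap2 2.31, and plots were made with Python 3.11.15 and matplotlib 3.10.9. Positions, promoters and overlapping genes come from GENCODE on GRCm39.

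The members and lists were chosen with earlier results of these data known. In each comparison the members called are named, or otherwise the 5 with the smallest p, and values by mouse are given for called members, the 3 with the smallest p in each comparison of 2 groups, and the Ldh, Slc16a, Pfk and Pyg families. Other genes were named after their values were seen. The tables held 0 columns of other samples.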

Additional observations from a re-analysis of the deposited data

Results flagged for a closer look

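In 5 of 184 sets of 4 mice, 1 mouse lay far from the other 3 by Dixon's criterion (gap over range above 0.829). Chance alone flags about 1 in 20 such sets, so 5 flags are fewer than chance would give. Pfkp was at 1.87 FPKM in C 2 and 1.41 to 1.48 in the other C mice. Slc16a1 was at 15.3 FPKM in E 2 and 11.7 to 11.8 in the other E mice. Gys1 was at 144 FPKM in T 2 and 118 to 122 in the other T mice. Pfkfb3 was at 53.1 FPKM in TE 2 and 21.8 to 27.1 in the other TE mice. Eno1 took 4.35% of the enolase pair in T 4 and 3.39 to 3.53% in the other T mice.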

How the results depend on the processing

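Of 655 alternative values for named genes, 626 kept their direction and their side of the threshold, 10 lost the call, 19 gained it and 0 reversed. At an unadjusted p under 0.05 the members called were 9 in T vs C, 2 in TE vs E, 5 in E vs C, 2 in TE vs T, 4 for tumor, 3 for training and 2 for the interaction. DESeq2 called 3 in T vs C, 2 in E vs C, 1 for training (Pfkp, adjusted p = 0.019) and 1 for the interaction (Fbp2, adjusted p = 0.043). Without the filter on low counts 2 were called in T vs C and 1 in E vs C, with limma-voom 1 in E vs C, and with only the groups compared 3 in E vs C. For the fit without the filter, and for the fits with mice left out below, the share of all genes called was not counted. The 1 member called for tumor, Ppp1r3c, was 0 under the fold change threshold, in a robust fit and with the replicate block (0.82, adjusted p = 0.0636). The block changed no other count of calls, and the numbers do not pair the mice (24 pairs, correlations -0.241 to 0.214, 5 over 0.1). Without T 3 and T 4 the median in T vs C was 0.023, and the members called were 0 for tumor and 1 for training. Leaving out 1 mouse at a time, the members called ranged from 0 to 2 in T vs C (2 without T 2, 1 without C 1) and from 0 to 2 for tumor (2 without T 2), and stayed 0 in the other 5 comparisons. The tumor difference in the share of Eno1 then ranged from -0.0411 to 0.120 percentage points, and the training difference from -0.0184 to 0.0263 for Pgam1, -0.630 to 0.454 for Ldhb and -0.0258 to 0.0394 for Pgm2. Depth limits Aldoc, which rests on 5 to 27 counts per library.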
